A study of Saccharomyces cerevisiae with 12 samples.

Results

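The transcripts described here encode the machinery of RNA polymerases I and III in Saccharomyces cerevisiae, budding yeast. They were chosen by name from the gene symbols of the array's probe sets: the subunits of both polymerases with those they share with RNA polymerase II, the general factors TFIIIB and TFIIIC of polymerase III, the initiation factors of polymerase I, and Maf1. All 40 genes of this list had 1 probe set each, of 5449 S. cerevisiae genes read on the array. Of the 40 genes, 37 were bright enough to be tested among 4086 genes in all, and 3 (RRN5, RRN7 and RRN10) were too dim. Cells had been grown at 4 glucose concentrations, 2%, 1%, 0.5% and 0.25%, and each level had 3 arrays of total RNA that the series design calls biological replicates. The labels give no strain, genotype, growth time or medium, and the word log in every sample title is not explained there.

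RNA polymerase I transcribes the ribosomal DNA into the precursor of the large ribosomal RNAs, and RNA polymerase III makes transfer RNAs, the smallest ribosomal RNA and other short RNAs. Both enzymes serve protein synthesis, so cells are known to turn them down when nutrients or growth signals fall away. In yeast much of this control is known to act on proteins: Maf1 is dephosphorylated and binds polymerase III, and Rrn3 leaves polymerase I. The signals of the listed genes are those of the messenger RNAs of these proteins, not the activity of the polymerases. Of their products, ribosomal RNA has probe sets on the arrays, which are given below only as a control signal.

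Signals are summarised array intensities on a linear scale in arbitrary units, and a value is comparable between arrays for 1 probe set but not between probe sets. HXT1, which encodes a transporter used when glucose is plentiful, had a mean signal of 1350.3 ± 70.0 (SD, n = 3) at 2% and 59.6 ± 12.5 at 0.25%. The arrays at 2% differed from the other 9 in control signals. Over 7 control genes with probe sets at both ends of the transcript, the log2 ratio of 3' to 5' signal averaged between 1.19 and 1.42 on the arrays at 2% and between 0.82 and 0.94 on the rest (difference 0.40, p = 0.0045 by a two-sided exact permutation test, where 220 splits allow nothing smaller). Over 17 probe sets for ribosomal RNA, the average log2 signal ranged from 6.88 to 8.76 at 2% and from 8.12 to 9.69 elsewhere (difference -1.20, p = 0.023 by the same exact permutation test). Both measures moved with every comparison against 2%, all of which share the same 3 arrays, and their part in the differences was not tested beyond the fits that carry them as a covariate. Since every array is scaled to the same mean, a lower signal is a lower share of the messenger RNA measured. Less of a transcript in every cell, fewer cells that hold it and more of other transcripts cannot be told apart.

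In the fit without the replicate number, no tested messenger RNA of either polymerase or its factors passed between any 2 glucose levels. With the replicate number added, RPA14 and RPO31 passed between 0.25% and 2% and between 0.5% and 2%. RPO31, the largest subunit of polymerase III, also passed on a slope across the 4 levels without the replicate number, with lower signals at lower glucose. That slope call was lost in 9 other settings. Of the 37 tested genes, 0 passed in any of the 6 comparisons between levels (limma, Benjamini-Hochberg adjusted p under 0.05 over all tested genes), where 4.04% of all tested genes passed between 0.25% and 2%, 1.15% between 0.5% and 2%, 0.245% between 1% and 2%, 0.93% between 0.25% and 1%, 0.122% between 0.25% and 0.5%, and 0.0979% between 0.5% and 1%. A test for any difference among the 4 levels passed for 0 of 37 against 2.13% of all genes. A slope of log2 signal on log2 glucose passed for 1 of the 37, RPO31, while 5.19% of all tested genes passed, 1.66% with a signal that was higher at higher glucose, like RPO31. With the replicate number added as a block, 2 of 37 genes (RPA14 and RPO31) passed between 0.25% and 2%, between 0.5% and 2% and in the test of any difference, where 10.9%, 9.69% and 8.13% of all tested genes passed, and 3 (RPA14, RPA190 and RPO31) passed on the slope, where 10.6% did. At an unadjusted p under 0.05, 3 of 37 genes (8.11%) differed between 0.25% and 2%, all lower at 0.25%, against 15.8% of all genes. The count at that threshold was 3 for 0.5% against 2% (14.1% of all genes), 2 for 1% against 2% (6.9%), 2 for 0.25% against 1% (6.83%), 1 for 0.5% against 1% (3.38%), 0 for 0.25% against 0.5% (3.33%), 2 for any difference (10.6%) and 4 for the slope (17.5%). With the block, the counts at that threshold were higher in the list and over all 4086 genes. Between 0.25% and 2%, 8 of the 37 genes and 1059 of all genes differed. The counts were 9 and 1040 for 0.5% against 2%, and 7 and 616 for 1% against 2%. They were 4 and 527 for 0.25% against 1%, and 3 and 337 for 0.5% against 1%. For 0.25% against 0.5% they were 0 and 305, for any difference 7 and 945, and for the slope 9 and 1042. The values over all genes are given to read the counts against and are no test of the list.

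The 95% intervals of the fit without the replicate number give the size of change that this fit could have missed. Between 0.25% and 2%, the interval of 35 of the 37 genes lay within a 1.5-fold change in either direction, and that of all 37 within 2-fold. The exceptions were RPC11, which encodes the RNA-cleavage subunit of polymerase III (-0.70 to 0.26 on the log2 scale), and RRN11, of the polymerase I core factor (-0.59 to 0.25). In RPC11 and RRN11, 77.6% and 74.8% of the variation lay between replicate numbers, which this fit leaves in the width of the intervals. Intervals from the blocked fit are not given here. Over the 37 genes the log2 differences between 0.25% and 2% ran from -0.26 to 0.22 with a median of -0.085, and 29 of them (78.4%) were below 0, while the median of all tested genes was -0.016 and 54.1% of them were below 0. The median of the 37 was 0.038 when ribosomal RNA signal entered as a covariate and 0.070 when the 3' to 5' ratio did, so its sign differed between these fits. Leaving out single arrays moved it between -0.17 (without replicate 3 at 2% or replicate 1 at 0.25%) and -0.017 (without replicate 3 at 0.25%), and it was -0.045 without replicate 1 at 2%. The arrays of both levels did not overlap for 3 of the 37 genes (8.11%), RPO31, RPA190 and TFC7, all lower at 0.25%, against 19.7% of all tested genes in either direction and 9.62% in the lower direction.

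**Figure D1:**
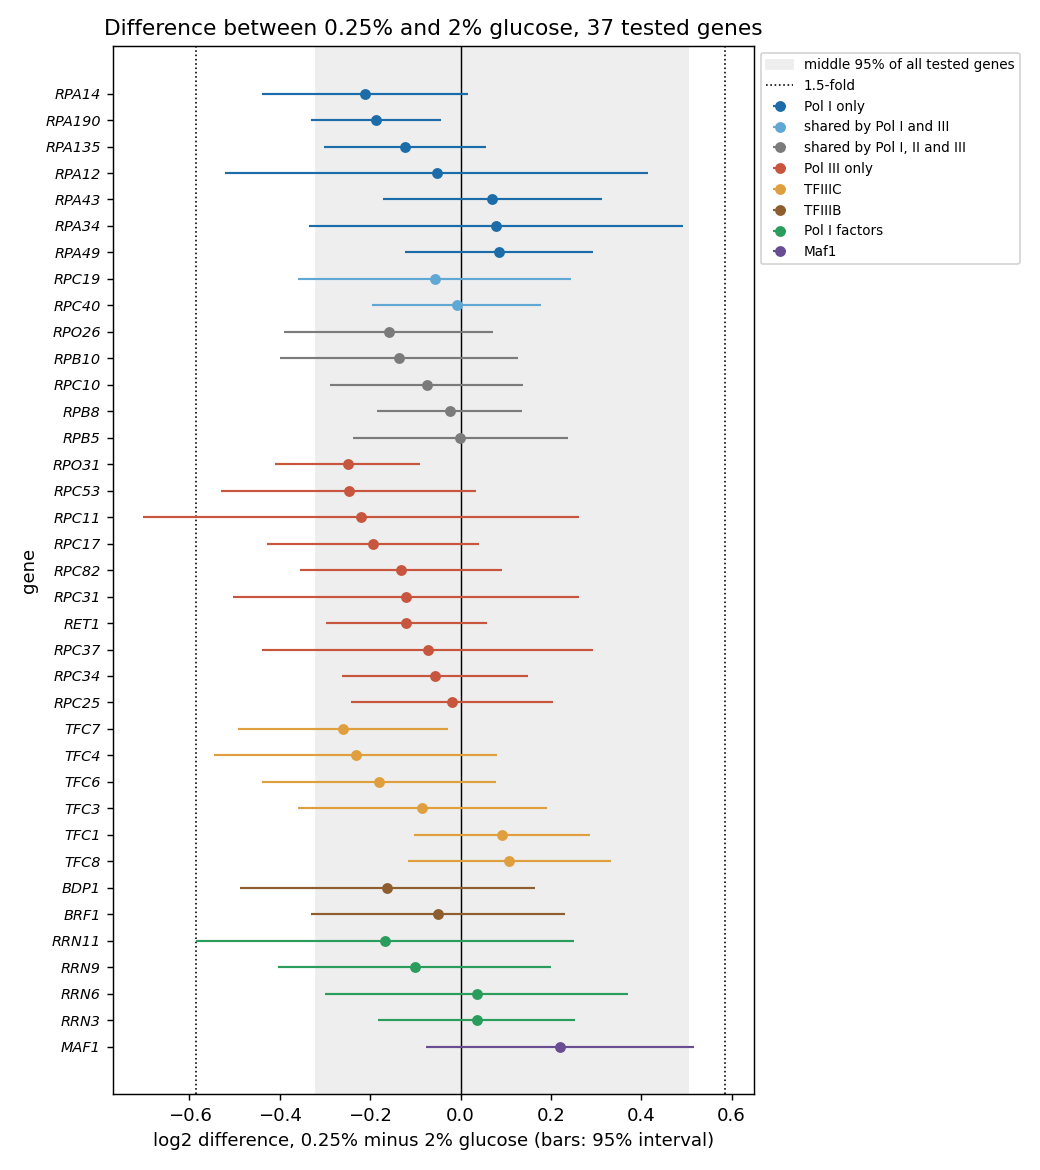
Log2 difference between 0.25% and 2% glucose for the 37 tested genes, grouped and coloured by role; points are fitted differences, bars their 95% intervals, the grey band holds the middle 95% of all tested genes and dotted lines mark a 1.5-fold change. All 37 points lie between -0.26 and 0.22, and 2 intervals, those of RPC11 and RRN11, reach past the lower dotted line.

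Polymerase I has 7 subunits of its own on the list, and 0 of them passed in any comparison without the block. RPA190, the largest subunit, which forms the active site with RPA135, had signals of 1998, 1772 and 1942 at 2% glucose, 1926, 1854 and 1868 at 1%, 1756, 1741 and 1714 at 0.5%, and 1652, 1697 and 1664 at 0.25%. All 3 arrays at 0.25% lay below all arrays at the other levels, and all arrays at 0.5% lay below those at 1% and 2%. The log2 difference between 0.25% and 2% was -0.19 (SE 0.067, adjusted p = 0.17 by limma), and its slope was 0.068 per doubling of glucose (SE 0.020, adjusted p = 0.070). RPA14, of the stalk that reaches out from the enzyme, had signals of 1256, 1094 and 1072 at 2% glucose, 1119, 963 and 939.5 at 1%, 1088, 952 and 894 at 0.5%, and 1119, 939.9 and 903 at 0.25%. The first array was the highest at each level and the levels overlapped, yet each numbered array at 2% lay above its counterpart at every lower level. The log2 difference between 0.25% and 2% was -0.21 (SE 0.11, adjusted p = 0.35), and in the blocked fit it passed (adjusted p = 0.018 by limma), as it did between 0.5% and 2% (0.36 without and 0.016 with the block). RPA14 thus lay lower than at 2% at every other level within the numbered sets. Its log2 difference from 2% was -0.18 at 1%, -0.22 at 0.5% and -0.21 at 0.25%. Between 1% and 2% it did not pass with the block. With the 3' to 5' ratio as a covariate the RPA14 difference between 0.25% and 2% was 0.038.

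The other subunits of polymerase I are given by their mean signals at 2%, 1%, 0.5% and 0.25% in that order (± SD, n = 3 each). RPA135, the second-largest subunit, had 2239 ± 142, 2210.2 ± 57, 2044 ± 199 and 2055 ± 113. RPA43, the stalk partner of RPA14 that binds Rrn3, had 567 ± 33.8, 631 ± 85.9, 593 ± 28.3 and 599 ± 86.7. In both genes the arrays at 0.25% and at 2% overlapped. RPA34 and RPA49 form a pair resembling the general factor TFIIF, and RPA34 had 1299 ± 314, 1291 ± 302, 1333 ± 173 and 1356 ± 234, with SDs larger than the differences between the means. RPA49 had 699 ± 38.5, 795 ± 24.1, 726 ± 43.7 and 746 ± 105, with its 3 arrays at 1% above all arrays at 2% (log2 difference 0.19, adjusted p = 0.77 by limma). RPA12, the subunit for RNA cleavage and termination, had 1186 ± 267, 1107 ± 219.8, 1089 ± 284 and 1151 ± 313, where the SD within a level exceeded the differences between levels. RPA43 and RPA190 are next to each other on the chromosome in RefSeq's R64 gene table, and their log2 differences between 0.25% and 2% were 0.071 (-0.17 to 0.31) and -0.19 (-0.33 to -0.043).

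Both subunits that polymerases I and III share, and the 5 that all 3 nuclear polymerases share, gave 0 calls. RPC40, of the assembly pair shared by polymerases I and III, had signals of 1464, 1529.6 and 1378 at 2% glucose, 1316, 1478 and 1215 at 1%, 1359, 1449 and 1579 at 0.5%, and 1471, 1362 and 1514 at 0.25%. The levels overlapped throughout, and the log2 difference between 0.25% and 2% was -0.0083 (95% interval -0.20 to 0.18). Its partner RPC19 had signals of 2083, 1655 and 1459.7 at 2% glucose, 1763, 1528 and 1498 at 1%, 1935, 1525 and 1434 at 0.5%, and 1865, 1675 and 1429.7 at 0.25%. The first array was the highest at each level, with a log2 difference between 0.25% and 2% of -0.058 (-0.36 to 0.25). RPO26, known as Rpb6 in polymerase II and needed for assembly, had signals of 2291, 2058 and 2141 at 2% glucose, 2173, 2062 and 1899 at 1%, 2386, 2119 and 1820.3 at 0.5%, and 2118, 2024 and 1691 at 0.25%. RPB10, a small zinc-binding subunit, had signals of 2113, 1931 and 1718 at 2% glucose, 1884, 1884 and 1486 at 1%, 1929, 1808 and 1539.5 at 0.5%, and 1910.3, 1829.8 and 1510.2 at 0.25%. In both genes the levels overlapped, and the log2 differences between 0.25% and 2% were -0.16 (-0.39 to 0.071) and -0.14 (-0.40 to 0.13). The last 3 shared subunits are given by their means from 2% down to 0.25% (± SD, n = 3 each). RPB5, which reaches toward the incoming DNA, had 1311 ± 183, 1285 ± 84.3, 1304 ± 91 and 1308 ± 159. RPB8 had 2307 ± 131, 2191 ± 117, 2318 ± 126 and 2266 ± 37.4. RPC10, known as Rpb12 in polymerase II, had 1222 ± 35.2, 1284 ± 113, 1126 ± 142 and 1164 ± 115. The differences of these 3 between 0.25% and 2% lay between -0.075 and -0.00034 on the log2 scale.

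In polymerase III, 1 of its 10 own subunits passed a test. RPO31, the largest subunit, which forms the active site with RET1, had signals of 588, 618 and 558 at 2% glucose, 574, 529.5 and 549 at 1%, 472, 497 and 494 at 0.5%, and 471, 507 and 506 at 0.25%. The arrays at 0.5% and 0.25% all lay below the arrays at 1% and 2%, while 1% overlapped 2% and 0.25% overlapped 0.5%. RPO31 had a slope of 0.092 per doubling of glucose on the log2 scale (SE 0.024, adjusted p = 0.032 by limma), without a further fall from 0.5% to 0.25%. Its log2 difference was -0.094 between 1% and 2%, -0.27 between 0.5% and 2% and -0.25 between 0.25% and 2% (SE 0.075 each), with adjusted p-values of 0.84, 0.099 and 0.087. In the blocked fit RPO31 passed between 0.5% and 2% (adjusted p = 0.021) and between 0.25% and 2% (0.026).

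The call of RPO31 on the slope was narrow. Leaving out any one array at 2% lost it (adjusted p = 0.088 for replicate 1, 0.11 for replicate 2 and 0.053 for replicate 3), and so did leaving out replicate 2 at 0.5% (0.057) or replicate 1 at 0.25% (0.066), while the slope itself stayed between 0.081 and 0.10 in all 12 fits that left out an array. With none of the arrays at 2% the slope was 0.078 (adjusted p = 0.73). It was 0.086 when ribosomal RNA signal entered as a covariate (adjusted p = 0.099) and 0.085 when the 3' to 5' ratio did (0.44). RPO31 thus had a slope of similar size in each of these fits, and why its call was lost was not tested. The 3' to 5' ratio itself differed between the arrays at 2% and the rest.

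RPC53, which pairs with RPC37 in a TFIIF-like module used in termination, had signals of 288, 240.2 and 267 at 2% glucose, 279, 246 and 232 at 1%, 221, 229 and 227 at 0.5%, and 267, 228 and 182 at 0.25%. Its 3 arrays at 0.5% lay below all arrays at 2% and 1%, whereas those at 0.25% spread across the range. The log2 difference between 0.25% and 2% was -0.25 (SE 0.13, adjusted p = 0.39 by limma) and the slope was 0.090 (adjusted p = 0.24). Without single arrays the difference ranged from -0.38 to -0.10, its ends being without replicates 1 and 3 at 0.25%, and the slope from 0.055 to 0.13. The other 8 subunits are given by their mean signals from 2% down to 0.25% (± SD, n = 3 each). RET1, the second-largest subunit, had 826 ± 75.9, 744 ± 40.8, 711 ± 4.78 and 759 ± 51.6. Its arrays at 0.5% lay below all arrays at 2%, with a log2 difference of -0.21 (adjusted p = 0.25), against -0.12 between 0.25% and 2%. RPC82, RPC34 and RPC31 form the trio that contacts TFIIIB and takes part in opening the promoter. RPC82 had 329.9 ± 21.5, 331 ± 42.4, 290.4 ± 15.2 and 301 ± 18, with its arrays at 0.5% again below those at 2%. RPC34 had 352 ± 11.5, 333 ± 15.7, 348 ± 33.3 and 339 ± 25.9, and RPC31 had 456 ± 84.6, 414 ± 109.9, 377 ± 46.7 and 417 ± 55.1. In both, the arrays at 0.5% overlapped those at 2%. RPC17 and RPC25 form the stalk. RPC17 had 365 ± 34.1, 387 ± 33.5, 351 ± 26.3 and 319.9 ± 33.9, and RPC25 had 414 ± 9.03, 423 ± 57.1, 415 ± 20.9 and 409.6 ± 41.2. RPC17 at 0.25% lay below all arrays at 1% (log2 difference -0.28, adjusted p = 0.52), whereas RPC25 had a difference of -0.042 there. RPC37, the partner of RPC53, had 385 ± 67.7, 369.9 ± 82.3, 355 ± 15.5 and 368 ± 76.9. RPC11, which serves RNA cleavage and the reuse of the enzyme on its template, had 655 ± 75.4, 619.8 ± 185, 554 ± 108 and 577 ± 167. All 10 log2 differences between 0.25% and 2% of the polymerase III subunits were below 0, from -0.25 to -0.020 with a median of -0.13. Among all tested genes 54.1% were below 0, among the 7 polymerase I subunits 4 were, and among the 7 subunits of polymerase II alone 6 were; these counts were not tested against each other.

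**Figure D2:**
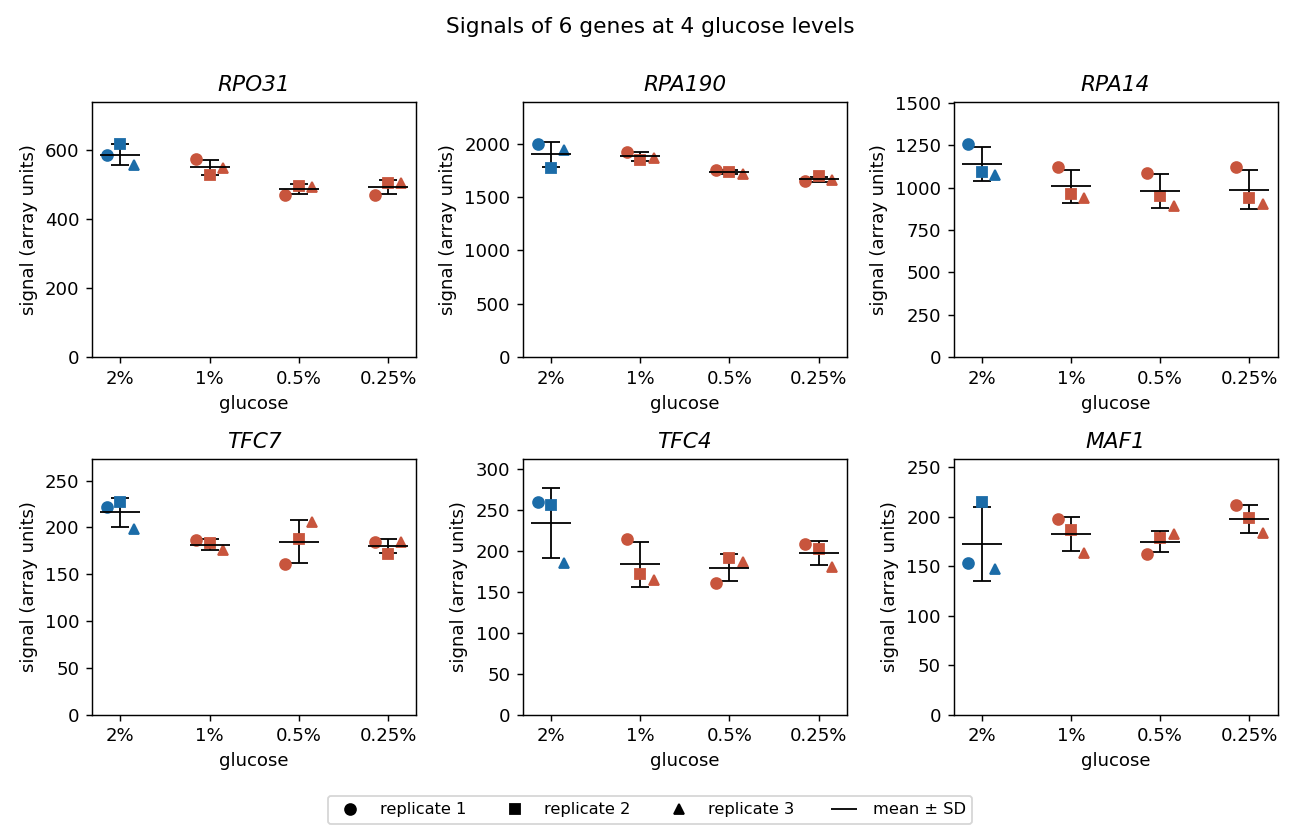
Signal (array units, linear axis from 0) on each of the 12 arrays for RPO31, RPA190, RPA14, TFC7, TFC4 and MAF1, by glucose level; symbols show the replicate number, 2% arrays are blue, and bars give the mean ± SD of 3 arrays. RPO31 goes from a mean of 588 at 2% to 495 at 0.25% and RPA190 from 1904 to 1671, without overlap between these 2 levels, whereas MAF1 overlaps.

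TFIIIC, which recognises the promoter elements inside transfer RNA genes and brings in TFIIIB, had 0 of 6 genes called. TFC7 had signals of 222, 227 and 199 at 2% glucose, 187, 183 and 175 at 1%, 161, 188 and 206 at 0.5%, and 185, 171 and 184 at 0.25%. The arrays at 1% and at 0.25% lay below all arrays at 2%, and 1 array at 0.5% reached into the 2% range. The log2 difference was -0.25 between 1% and 2% and -0.26 between 0.25% and 2% (SE 0.11, adjusted p = 0.72 and 0.24 by limma). TFC4, the subunit that recruits TFIIIB, had signals of 260.4, 257 and 185 at 2% glucose, 215, 172 and 164 at 1%, 161, 192 and 186 at 0.5%, and 209, 203 and 181 at 0.25%. Here 2 arrays at 2% lay above all others and the third lay among them. The TFC4 difference was -0.34 between 1% and 2%, -0.37 between 0.5% and 2% and -0.23 between 0.25% and 2% (SE 0.15, adjusted p = 0.70, 0.26 and 0.49). The others are given by their means from 2% down to 0.25% (± SD, n = 3 each). TFC3, which contacts the downstream promoter element, had 181 ± 28.8, 169 ± 4.50, 162 ± 10.3 and 170.2 ± 23.4. TFC1, on the side of the upstream element, had 265 ± 15.4, 259.6 ± 8.46, 273 ± 10.2 and 282 ± 18.7. TFC6 had 130.1 ± 13.7, 111 ± 11.6, 118 ± 8.99 and 115 ± 10.2, and TFC8 had 185 ± 13.8, 187 ± 6.44, 197 ± 22.6 and 199 ± 3.54. TFC6 was the dimmest gene of the list that was tested, just above the filter at a signal of 110.2. TFC1 and TFC8 had positive differences between 0.25% and 2% (0.092 and 0.11), and TFC3 and TFC6 negative ones (-0.085 and -0.18).

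TFIIIB positions polymerase III at the start site, and neither of its own subunits was called. BRF1, the TFIIB-related subunit and a target of Maf1, had signals of 242, 281 and 202 at 2% glucose, 249, 222 and 232 at 1%, 208, 254 and 210.4 at 0.5%, and 240.2, 251 and 206 at 0.25%. BDP1, which completes the complex on DNA, had signals of 158, 203 and 132 at 2% glucose, 169, 158 and 136 at 1%, 154, 168 and 157 at 0.5%, and 155, 159 and 123 at 0.25%. In both the second array at 2% was the highest of all 12 and the levels overlapped. The log2 differences between 0.25% and 2% were -0.049 (-0.33 to 0.23) for BRF1 and -0.16 (-0.49 to 0.16) for BDP1.

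Of the 7 factors of polymerase I, 4 were bright enough and 0 were called. RRN11, of the core factor that binds the ribosomal DNA promoter, had signals of 283, 267 and 181 at 2% glucose, 314, 227 and 203 at 1%, 235, 221 and 185 at 0.5%, and 240.2, 233 and 173 at 0.25%. RRN9, of the upstream activating factor, had signals of 183, 235 and 156 at 2% glucose, 194, 188 and 209 at 1%, 177, 201 and 208 at 0.5%, and 155, 186 and 188 at 0.25%. The levels overlapped in both, and the log2 differences between 0.25% and 2% were -0.17 (SE 0.20) and -0.10 (SE 0.14). The RRN11 difference was -0.37 without replicate 3 at 2% and -0.017 without replicate 3 at 0.25%. RRN3, the growth-regulated factor that makes polymerase I able to initiate, had means of 351 ± 33.3, 341 ± 35.3, 344 ± 11.7 and 359 ± 22.9 from 2% down to 0.25% (± SD, n = 3 each; log2 difference 0.036, 95% interval -0.18 to 0.25). RRN6, another subunit of the core factor, had 152 ± 28.3, 155 ± 32.8, 138 ± 5.17 and 155 ± 12.4.

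The 3 dim genes stood below the filter and are given as values. RRN5, of the upstream activating factor, had signals of 45.3, 50.9 and 63.1 at 2% glucose, 84.9, 62.6 and 83.7 at 1%, 70.4, 85.7 and 68.4 at 0.5%, and 64, 79.2 and 94.9 at 0.25%. All 3 arrays at 2% were below all 3 at 0.25%, the opposite direction to most of the list. Tested without the filter, the RRN5 log2 difference between 0.25% and 2% was 0.58 (SE 0.18, limma adjusted p = 0.10), and 0.54 (adjusted p = 0.49) between 1% and 2%. RRN7, of the core factor, had means of 103 ± 4.40, 95 ± 3.39, 91.1 ± 6.30 and 90.8 ± 6.24 from 2% down to 0.25%, and RRN10, of the upstream activating factor, had 92.1 ± 10.2, 95.8 ± 15.2, 96.5 ± 8.51 and 91.5 ± 8.74 (± SD, n = 3 each). RRN7 was separated the other way from RRN5, with 97.8, 105 and 106 at 2% above 83.8, 92.9 and 95.7 at 0.25%. Without the filter the differences between 0.25% and 2% were -0.18 (adjusted p = 0.45) for RRN7 and -0.0088 (adjusted p = 0.99) for RRN10.

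MAF1, the repressor that conveys nutrient and stress signals to polymerase III, had signals of 153, 215 and 148 at 2% glucose, 198, 187 and 164 at 1%, 163, 179 and 183 at 0.5%, and 212, 198 and 184 at 0.25%. The lowest and the highest of the 12 values were both at 2%, where the signal was 172 ± 37.5 (SD, n = 3). The log2 difference between 0.25% and 2% was 0.22 (SE 0.14, 95% interval -0.078 to 0.52, adjusted p = 0.49 by limma). It was 0.39 without replicate 2 at 2% and 0.12 without replicate 3 at 2%. All 3 arrays at 0.25% lay above the 3 at 0.5%, with a log2 difference of 0.18 (adjusted p = 0.999).

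The comparisons among the lower levels do not involve the arrays at 2%. Between 0.25% and 1% the median log2 difference of the 37 genes was -0.004, with 20 below 0, and the median of all tested genes was 0.008. RPA190 had the difference -0.17 (SE 0.067, adjusted p = 0.50 by limma) and RPO31 -0.16 (SE 0.075, adjusted p = 0.73). In these 2 genes and in RPC17 the arrays at 0.25% lay below those at 1%, which makes 3 of 37 genes (8.11%) without overlap, all lower, against 11% of all tested genes and 3.5% in the lower direction. Between 0.5% and 1% the arrays did not overlap for 6 of 37 genes (16.2%), 5 lower (RPA49, RPA190, RPO31, RPC53 and RPC82) and 1 higher (TFC1), against 8% of all genes and 4.85% in the lower direction. RPO31 had the difference -0.18 at this step (adjusted p = 0.998). Between 0.5% and 2% the count was 5 of 37 (13.5%), all lower (RPA190, RPO31, RET1, RPC53 and RPC82), against 21.5% of all genes, or 15% in the lower direction. Between 1% and 2% it was 2 of 37 (5.41%), RPA49 higher and TFC7 lower, against 10.6%, or 5.6% in the lower direction. Between 0.25% and 0.5% it was 4 of 37 (10.8%), RPA190 lower and RET1, RRN6 and MAF1 higher, against 10.4%, or 3.03% in the lower direction.

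By the median over these transcripts, more of the variation lay between replicate numbers than between glucose levels. The share of each gene's sum of squares over the 12 arrays (log2 scale) that lay between replicate numbers had a median of 42.7% over the 37 genes, and the share between glucose levels a median of 19.7%; over all tested genes the medians were 29.4% and 27.3%. The number exceeded the level in 24 of the 37 genes (64.9%), against 51.9% of all tested genes. In a test of the replicate number beside the level, chosen after the data were seen, 13 of 37 genes (35.1%) passed (limma, adjusted p under 0.05), against 22.7% of all tested genes. In all 13, replicate 1 was higher than replicate 3, as in 679 of the 926 genes that passed in all: RPA12, RPA14, RPA34, RPA43, RPC19, RPB5, RPB10, RPC10, RPO26, RPC11, RPC31, RPC37 and RRN11. Replicate 1 lay above replicate 3 at all 4 levels in 19 of the 37 genes (51.4%), against 24.2% of all tested genes. Of the 7 subunits of polymerase II alone, which are not on the list, 4 (57.1%) passed the test of the number. In 3 of these replicate 1 was higher than replicate 3, and in 1 it was lower. The number exceeded the level in 6 of the 7. The roles within the list differed: in TFIIIC 0 of 6 genes passed, with median shares of 16.9% for the number and 36.6% for the level. The labels do not say what arrays of one number have in common.

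**Figure D3:**
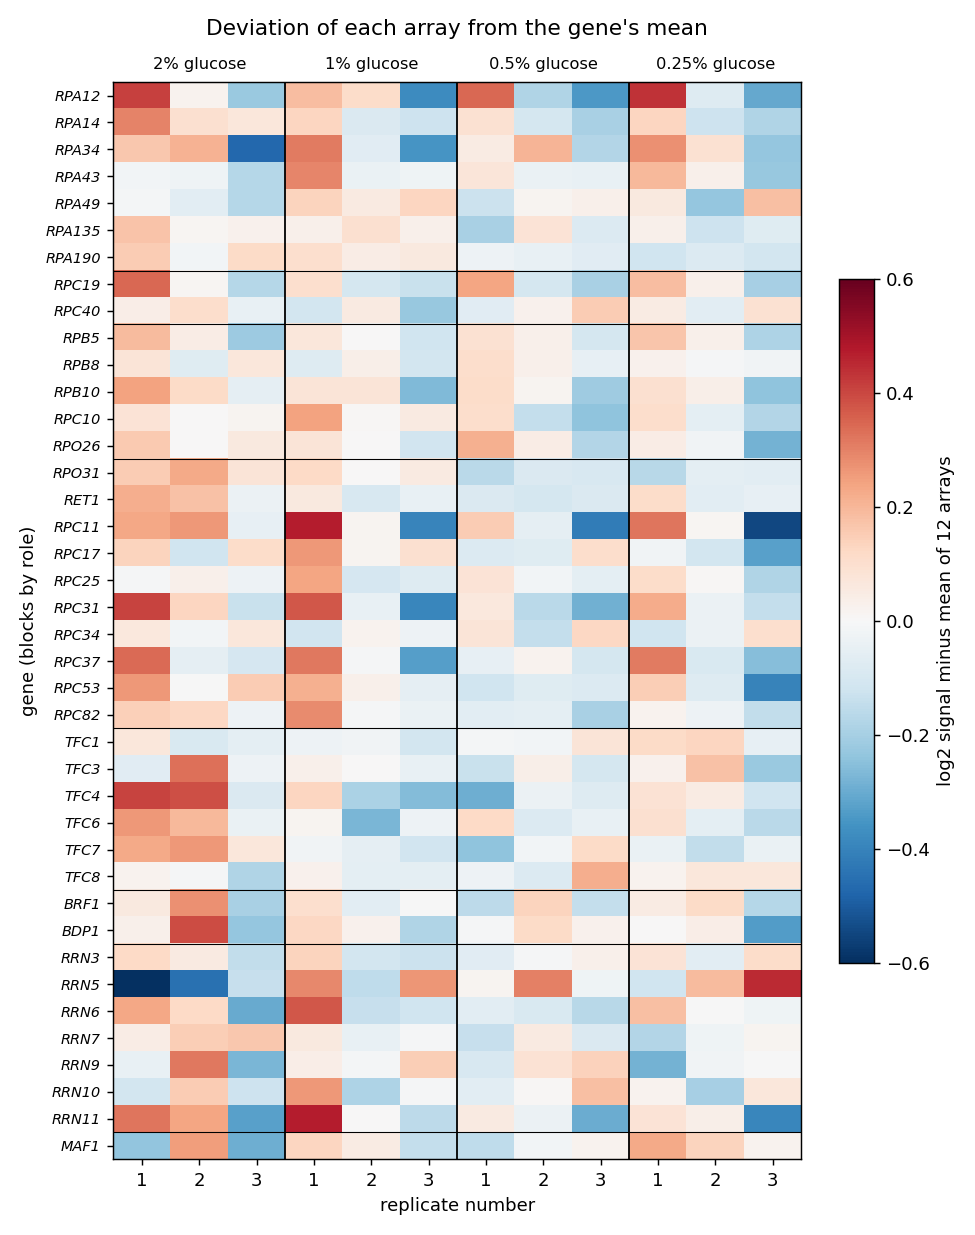
Log2 signal of each of the 40 genes on each array minus that gene's mean over 12 arrays, with arrays grouped by glucose level and ordered by replicate number; horizontal lines separate the roles. In 19 of the 37 tested genes replicate 1 exceeds replicate 3 at all 4 levels. In RPO31 and RPA190 more of the variation lies between levels than between replicate numbers.

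RPA12 had the signals 1477, 1264, 1411 and 1502 in replicate 1 of 2%, 1%, 0.5% and 0.25%, and 952, 856, 876 and 899.7 in replicate 3. The replicate 1 arrays of RPA12 did not overlap the replicate 3 arrays, and the number accounted for 89.8% of the variation and the level for 2.92% (adjusted p of the number = 7.8e-05 by limma). RPC11 had 693, 705 and 569 at 2% and 736, 593 and 403 at 0.25% in replicates 1, 2 and 3, with 77.6% between numbers. For RPB5 the number accounted for 89.8%, for RPC19 86.5%, for RPB10 82.7% and for RPA34 80.1%. In other genes the number accounted for little: 1.48% in RPO31 and 5.48% in RPA190, where the level accounted for 84.0% and 79.1%. In RPA135 most of the variation lay in neither (3.40% number, 38.6% level, 58.0% left over), as in RPC40 (4.89%, 29.2% and 65.9%). RET1 had 26.1% by number and 51.0% by level. TFC7 was nearer to RPO31, with 0.877% for the number and 58.2% for the level. RPA14 divided between both, with 61.8% and 37.2%, and 1.05% was left over.

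**Figure D4:**
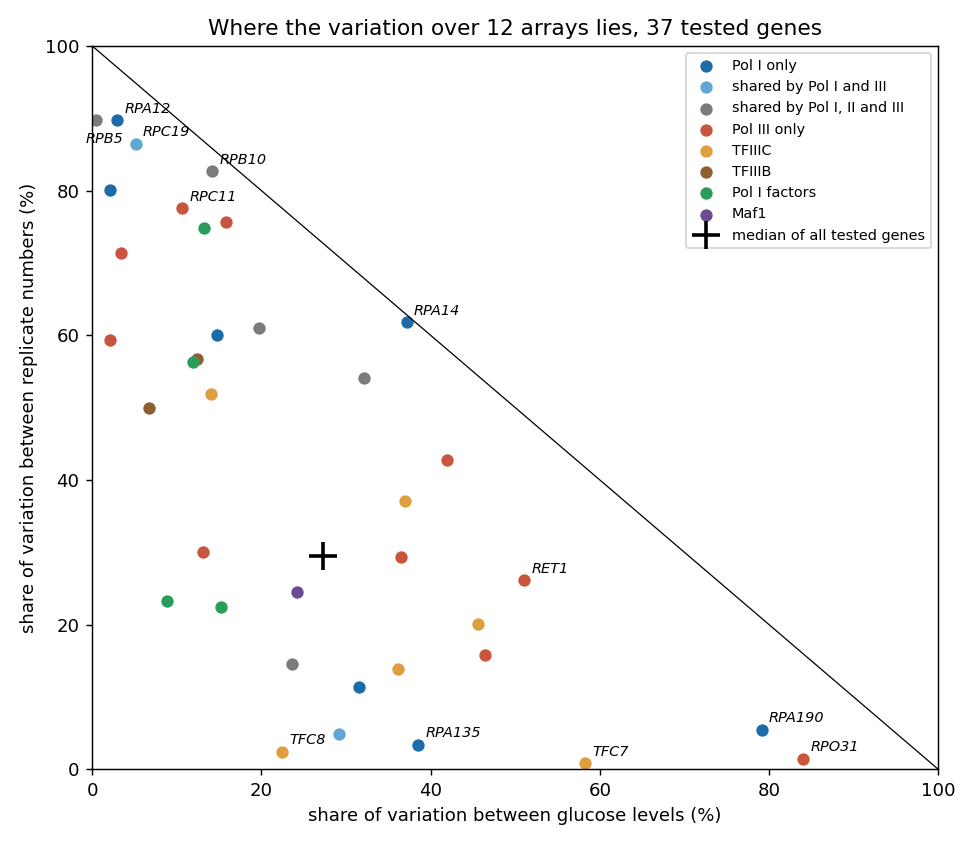
Share of each tested gene's variation over 12 arrays that lies between glucose levels (horizontal, %) and between replicate numbers (vertical, %), coloured by role; the diagonal marks shares that add up to all variation and the cross the medians of all tested genes (27.3% and 29.4%). RPO31 and RPA190 lie at the lower right (84.0% and 79.1% by level), and RPB5 and RPA12 at the upper left (89.8% by number each).

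**Figure D5:**
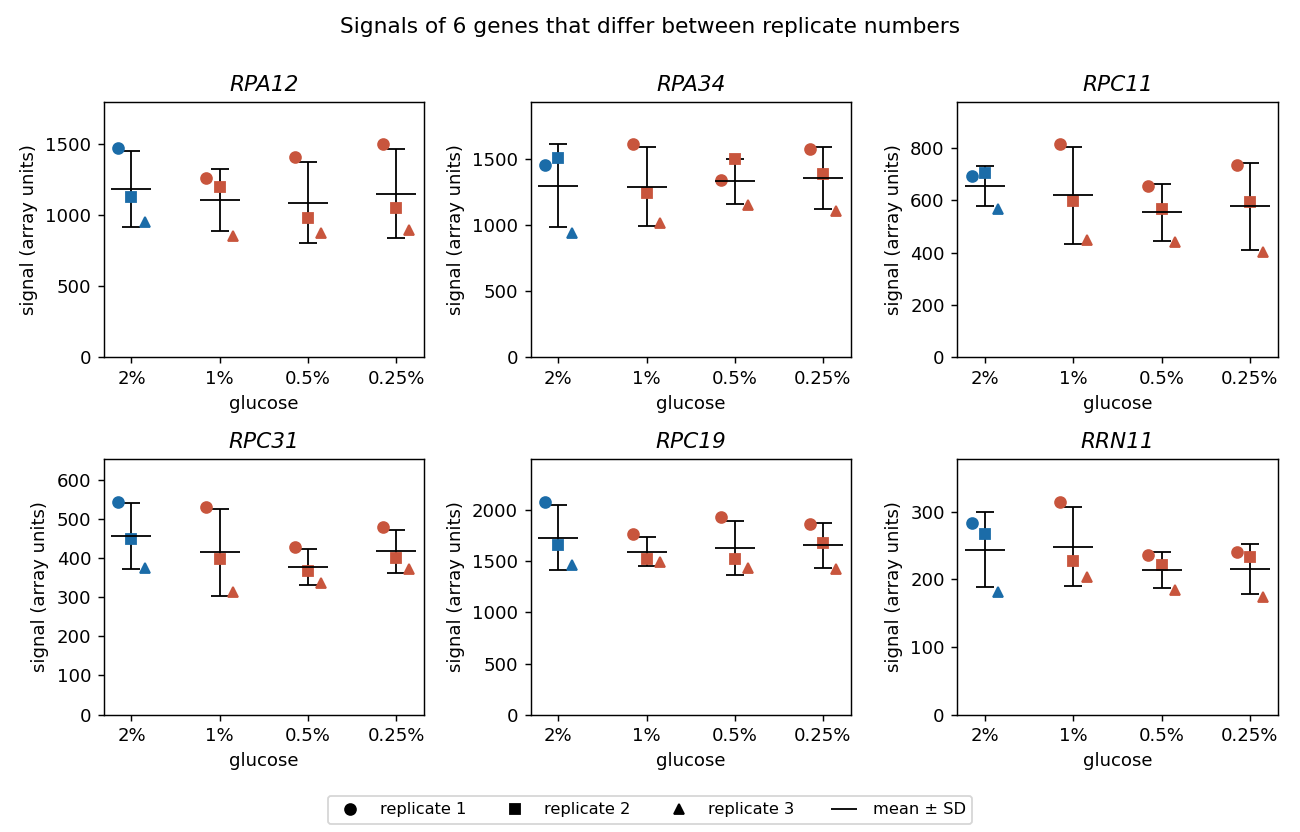
Signal (array units, linear axis from 0) on each array for RPA12, RPA34, RPC11, RPC31, RPC19 and RRN11, by glucose level; symbols show the replicate number and bars the mean ± SD of 3 arrays. At each level replicate 1 exceeds replicate 3 in all 6 genes, and the 4 means overlap within their SD.

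Genes around this machinery were counted in the same fits, without a block, and 0 of them passed in any comparison or on the slope. Among other factors at the templates of both polymerases 8 of 10 were tested (PZF1 and UAF30 were dim), with a median log2 difference between 0.25% and 2% of -0.017. REB1, which binds ribosomal DNA near the end of the polymerase I transcript, had 0.21 (SE 0.14, adjusted p = 0.53 by limma), and LHP1, the yeast La protein that binds new polymerase III transcripts, had -0.15 (SE 0.063, adjusted p = 0.26). SPT15, the TATA-binding protein used by all 3 polymerases, had 0.062 (-0.13 to 0.26). LHP1 at 0.25% lay below all arrays at 2%, with signals of 1223, 1192 and 1267 against 1394, 1319 and 1364.

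In signalling to both polymerases 17 genes were tested (KNS1 was dim), with a median log2 difference between 0.25% and 2% of -0.049. MCK1, a kinase known to act on polymerase III under stress, had 0.36 (SE 0.22, adjusted p = 0.45 by limma), and its replicates at 0.25% were spread over 401, 429 and 642. TOR1 and TOR2 encode the target of rapamycin kinases, which relay nutrient signals. TOR1 had signals of 227, 261 and 218 at 2% and 197, 207 and 188 at 0.25%, and the levels did not overlap (log2 difference -0.25, SE 0.10, adjusted p = 0.23). In the blocked fit TOR1 and TOR2 passed between 0.5% and 2%, both lower at 0.5% (-0.31 and -0.31 on the log2 scale, adjusted p = 0.043 and 0.035, against 0.18 and 0.18 without it), where 9.69% of all tested genes passed with the block. TOR1 also passed on the blocked slope (0.10 per doubling of glucose, adjusted p = 0.042, and 0.097 without the block).

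The 7 subunits that belong to polymerase II alone had a median log2 difference between 0.25% and 2% of -0.049, with 6 below 0. RPB3 had the difference -0.15 (adjusted p = 0.46 by limma) and RPB4 -0.080 (adjusted p = 0.85). Between 0.5% and 2%, RPB3 passed in the blocked fit (-0.20, adjusted p = 0.045, and 0.33 without it). RPO21, the largest polymerase II subunit, had -0.014 (-0.36 to 0.33), with 80.1% of its variation between replicate numbers and 4.94% between levels, and it was lowest in replicate 1. RPO21 thus stood apart from RPA190 and RPO31 in how its variation was divided, a difference that was not tested. Of 8 regulators of ribosome genes 6 were tested (FHL1 and CRF1 were dim), with a median of 0.0043. IFH1, a coactivator of ribosomal protein genes, had -0.12 (adjusted p = 0.79), and SFP1, a nutrient-responsive activator of ribosome synthesis genes, 0.11 (adjusted p = 0.74).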

How the data were processed

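Total RNA from 12 yeast cultures at 4 glucose levels was extracted with Trizol LS, labelled with biotin and read on one-colour Affymetrix arrays, per the labels. The deposited values are linear intensities, 1 per probe set, scaled by the authors: on each array the mean after dropping the lowest and highest 2% of values above 0 is 500. The sources used here do not name the summarising program.

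Probe sets took their names from GEO's platform annotation, matched to RefSeq (5498 named probe sets, 5449 genes). The brightest probe set of a gene was kept, as log2 with a floor of 1 and no further normalization, since array medians differed by at most 0.173 (limit 0.2). Genes at or under percentile 25 of mean signal (110.2) were set aside as dim. limma 3.58.1 in R 4.3.3 fitted a mean per level over all 12 arrays with an intensity trend. Tests were two-sided, with Benjamini-Hochberg adjustment over 4086 genes. On simulated data the fit without the block recovered 78% of changes of 0.5 on the log2 scale between 0.25% and 2%. It recovered 98% of changes of 1, and 7 of 183 calls were false. The simulated noise was independent between arrays, so deviations shared by replicate number, and smaller changes, were not covered. Precision is limited by the number of arrays. The members and lists were chosen with earlier results of these data known.

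Equal replicate numbers deviated together: 17 of 18 pairs had r above 0.1 across genes (-0.027 to 0.712), and 12 of 12 arrays were nearest to their own number. All pairs passed for every comparison but 1% against 2%, so blocked values stand beside results they change. Values on each array are given for genes that passed and for the 2 of each role with the largest absolute difference between 0.25% and 2%; RPA12, RPC11, RRN5 and genes named for arrays that do not overlap or for a blocked call were chosen after their values were seen. Promoter motifs were planned and not analysed here. The alternatives were other normalizations, an offset, filters, probe set means, array weights, covariates, the block and left-out arrays.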

Additional observations from a re-analysis of the deposited data

How the results depend on the processing

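The count of 0 tested genes passing was unchanged under all alternatives for 1% against 2%, 0.5% against 1%, 0.25% against 1% and 0.25% against 0.5%. Blocking by replicate number let 2 genes pass between 0.25% and 2%, between 0.5% and 2% and in the test of any difference (RPA14 and RPO31 each time) and 3 on the slope (RPA14, RPA190 and RPO31). The block changed no other count of these genes at an adjusted p under 0.05. Their counts at an unadjusted p under 0.05 rose with the block in every comparison except 0.25% against 0.5%. Array weights gave 2 between 0.5% and 2% (RET1 and RPO31) and, on the slope, RPA190 in place of RPO31. On the slope 2 passed with quantile normalization and 2 with a dim filter at percentile 50 (RPA190 and RPO31), and 0 did when ribosomal RNA signal or the 3' to 5' ratio entered as a covariate or the 2% arrays were left out (the last 2 chosen after seeing the data). Leaving out single arrays gave 0 to 1 on the slope and 0 in every other comparison. RPA190 passed on the slope without replicate 2 at 2% (adjusted p = 0.028). Over all tested genes 165 calls between 0.25% and 2% became 445 with the block, 83 without replicate 1 at 2%, 103 and 98 without replicate 1 or 3 at 0.25%, 100 with the compared levels alone and 8 with the 3' to 5' ratio as a covariate; on the slope 212 became 434, 129 without replicate 1 at 2%, 53 with that ratio and 40 without the 2% arrays. The block took 47 to 396 between 0.5% and 2% and 87 to 332 for any difference. The median of the 37 between 0.25% and 2% turned to 0.038 and 0.070 under the ribosomal RNA and 3' to 5' covariates. Some single log2 differences there changed sign too. No gene of the list was called there without the block, and RPA14, called with the block, was among those that changed sign. Under the ribosomal RNA covariate the differences that changed sign were 0.11 for RPC19, 0.064 for RPC40, 0.060 for RPB10, 0.10 for BRF1, 0.024 for BDP1 and 0.12 for RRN11. With the 3' to 5' ratio they were 0.038 for RPA14, 0.43 for RPC19, 0.25 for RPC40, 0.30 for RPB10, 0.16 for TFC4 and 0.35 for RRN11. Without single arrays they ranged from -0.17 to 0.083 for RPC19, -0.048 to 0.036 for RPC40, -0.17 to 0.065 for BRF1, -0.31 to 0.0012 for BDP1 and -0.24 to 0.058 for RRN9. Among those that kept their sign, the range was -0.30 to -0.14 for RPA14, -0.21 to -0.034 for RPB10, -0.22 to -0.062 for RPO26 and -0.39 to -0.15 for TFC4. The cause of these changes was not tested. Between 12 and 17 genes differed by replicate number in 7 other settings, all with replicate 1 above replicate 3. With 3 arrays a level, changes smaller than the intervals given could be missed in the fit without the block, from which these intervals come. RPA14 was called between 0.25% and 2% only with the block.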
